A study of Mus musculus with 10 samples.

Results

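Potassium channel genes were taken as the genes whose mouse symbol starts with Kcn, leaving out symbols with -ps, os or Rik, and 86 of the 28585 genes in the deposited count table met this rule. They comprised 38 voltage-gated alpha subunits, 8 calcium- or sodium-activated channels, 14 inward rectifiers, 10 tandem pore domain channels, 14 auxiliary subunits and 2 other genes, Kcnq1ot1 and Kcnrg. The libraries were RNA-seq libraries of fluorescent cells sorted from the ischemic hemisphere of mouse brains, and the design set CD11c reporter cells beside microglia to find the genes particular to each population. Transgenic CD11c cells (4 libraries, replicates 23, 24, 26 and 27) were CD11c-eYFP+ cells of Tg(Itgax-Venus)1Mnz mice aged 13 to 14 weeks, in which a yellow fluorescent protein follows the promoter of the CD11c gene Itgax. Parabiotic CD11c cells (3 libraries, replicates 3, 11 and 15) were CD11c-eYFP+ cells of C57BL/6 mice aged 15 to 16 weeks that shared their circulation with a Tg(Itgax-Venus)1Mnz partner, so that labelled cells in the host brain came from the partner by way of the blood. Microglia (3 libraries, replicates 39, 40 and 41) were sorted from CX3CR1CreERT2:Rosa26-tdT mice aged 13 to 14 weeks, in which an inducible Cre from the Cx3cr1 locus switches on a red reporter. All groups came from injured tissue, and no uninjured sample entered a comparison. The mice were female where the labels give a sex, which they do for 9 libraries; parabiotic replicate 15 carries neither a sex nor a cell type label. Its strain label is C57BL/6 and its genotype label Tg(Itgax-Venus)1Mnz, the genotype of the transgenic group, and it was placed by its title and age. The labels do not say whether a library stands for a single mouse, so p-values measure the spread between these libraries, which may in part be technical.

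Potassium channels let potassium ions leave or enter the cell along their gradient and thereby set the membrane potential. In microglia and macrophages the resting potential is known to rest on inward rectifiers and tandem pore domain channels, whereas voltage-gated and calcium-activated channels carry potassium out after depolarisation or a calcium signal. Potassium efflux is also the classic trigger of the NLRP3 inflammasome, and calcium entry through store-operated channels depends on the driving force that potassium channels maintain. Auxiliary subunits have no pore of their own and alter the gating or transport of the channels they bind.

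Libraries held 31534625 to 41730688 counts. The sorted populations were read against marker lists. All 9 microglial markers had a count in every group, some at very low levels. Their summed levels were 5839 to 16706 CPM (counts scaled to a fixed library size) in transgenic CD11c cells, 1907 to 3338 CPM in parabiotic CD11c cells and 18683 to 20772 CPM in microglia. Sall1 stood at 0.258, 0.152 and 0.395 CPM in parabiotic replicates 3, 11 and 15, against 467, 375 and 318 CPM in microglia. Tmem119 stood at 158, 229 and 311 CPM in these parabiotic libraries, against 1940, 1889 and 1787 CPM in microglia. All 6 dendritic cell markers summed to 3065 to 12282 CPM in transgenic CD11c cells, 19375 to 24256 CPM in parabiotic CD11c cells and 178 to 269 CPM in microglia. Transgenic replicates 26 and 27 stood apart from the other transgenic libraries, and from each other. The dendritic sum was 3065 and 5114 CPM in replicates 26 and 27, beside 11146 and 12282 CPM in replicates 23 and 24. The microglial sum was 16706 CPM in replicate 26 and 5839 CPM in replicate 27, the highest and the lowest of the transgenic group, beside 10951 and 11262 CPM in replicates 23 and 24. Single markers did not all follow this sum. Sall1 stood at 85.6 CPM in replicate 26, beside 139 and 165 CPM in replicates 23 and 24. Tmem119 (725 beside 834 and 736 CPM) and P2ry12 (656.0 beside 656.5 and 763 CPM) were not higher in replicate 26 either. The other markers of the list are not given singly. Neutrophil markers (7 of 7 in the table) summed to 17.3 to 49.9 CPM in transgenic CD11c cells, with Camp and Ngp at 0, to 50.3, 799 and 157 CPM in parabiotic replicates 3, 11 and 15, and to 0.311 to 1.80 CPM in microglia, with Ly6g and Retnlg at 0. The library numbers of transgenic replicates 26 and 27 lie apart from the unbroken run of the other 8 libraries. Transgenic results are therefore given with and without these replicates where they matter. In sorted bulk samples such as these, fewer cells of a type and less RNA per cell cannot be told apart.

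A few genes carried most of the potassium channel message in each group, and the leading gene differed between them. To compare genes, levels were divided by exon length (CPM per kilobase, kb), over the 85 protein-coding members, without the long non-coding Kcnq1ot1. Exon length was that of all annotated exons of a gene merged, such as 1902 bases for Kcna3 and 5115 for Kcnn4. The 4 highest genes of a library together held 79.5% to 87.3% of the sum. Kcnk6 led in all 3 microglia libraries with 37.8% to 53.5% of the sum, against 14.6% to 24.02% in transgenic and 10.4% to 11.6% in parabiotic CD11c cells. Kcna3 led in all 3 parabiotic libraries with 24.3% to 27.4% of the sum, followed by Kcnk13 at 23.01% to 25.5% and Kcnn4 at 16.1% to 20.3%. Transgenic libraries were led by Kcna3 in replicates 23 and 24 and by Kcnk13 in replicates 26 and 27. These shares and ranks depend on the exon length. In mean CPM of parabiotic CD11c cells, Kcnn4 (111), Kcnk13 (87.3) and Kcnab2 (82.1) exceeded Kcna3 (56.8). In CPM, Kcnk6 led in transgenic replicates 23 and 24 (154 and 159.7), as it did in every microglia library. The summed level was 155, 165, 112 and 101 CPM per kb in transgenic CD11c cells, 115, 115 and 122 CPM per kb in parabiotic CD11c cells and 201, 204 and 168 CPM per kb in microglia. Every microglia library thus lay above every CD11c library in this sum, though microglia replicate 41 (168) barely exceeded transgenic replicate 24 (165). Kcnk6 made up 108, 89.3 and 63.6 CPM per kb of the sum in microglia replicates 39, 40 and 41. It made up 37.2, 38.5, 17.5 and 14.8 CPM per kb in transgenic replicates 23, 24, 26 and 27, and 12.7 CPM per kb in the mean of parabiotic CD11c cells. The sum without Kcnk6 was not compared. Over all members, 76 had a count in at least 1 transgenic library, 69 in at least 1 parabiotic library and 77 in at least 1 microglia library.

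**Figure D1:**
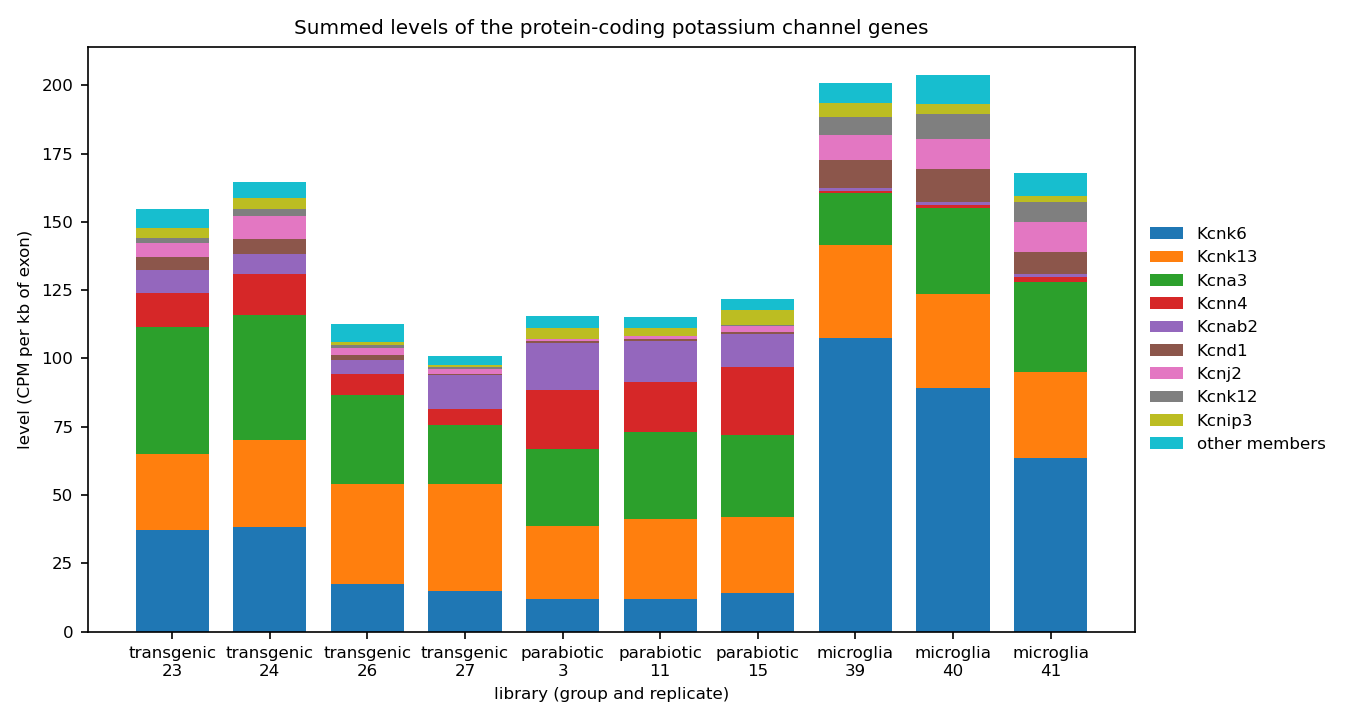
Summed level in CPM per kb of exon for each library, split by gene, for the potassium channel genes other than Kcnq1ot1. Kcnk6 fills 37.8% to 53.5% of each microglia bar, and the parabiotic bars, at 115 to 122 CPM per kb, are shared more evenly between Kcna3, Kcnk13, Kcnn4, Kcnab2 and Kcnk6.

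Of the 86 genes, 29 passed the filter on low counts and were tested, namely 10 voltage-gated, 3 calcium-activated, 5 inward rectifier, 3 tandem pore domain, 6 auxiliary and both other genes. The other 57 stayed at or below 1 CPM in every library. In parabiotic CD11c cells against microglia, 4 members were called higher and 10 lower at an adjusted p under 0.05 (edgeR's quasi-likelihood test, Benjamini-Hochberg adjusted over all 15151 genes tested), and 15 were not called. Over all genes tested, 17.4% were called higher and 17.9% lower in this comparison, beside 13.8% and 34.5% of the tested members; in either direction the share was 35.3% of all genes and 48.3% of the tested members. Libraries of the compared groups did not overlap for 19 members, 65.5% of those tested, against 60.3% of all genes. The median log2 fold change was -0.52 over the members and -0.02 over all genes. In transgenic CD11c cells against microglia, 3 members were called higher, 3 lower and 23 not, on a background of 8.88% higher, 4.79% lower and 13.7% in either direction. Libraries did not overlap for 12 members, against 30.3% of all genes. The median log2 fold change here was -0.29 over the members and 0.02 over all genes. In transgenic against parabiotic CD11c cells, 3 members were called higher, none was called lower and 26 were not called, on a background of 7.63% higher, 2.42% lower and 10.1% in either direction, with a median of 0.30 over the members and 0.04 over all genes. Libraries did not overlap for 6 members, against 22.7% of all genes. For the count of 0, edgeR gave 5 members lower at an unadjusted p under 0.05, DESeq2 called 3 and limma-voom called 2. The members that passed the filter did so in part because they were high in 1 group, and the comparisons share libraries with each other, so their counts are not independent of one another. Leaving out transgenic replicates 26 and 27 gave 4 higher and 4 lower for transgenic CD11c cells against microglia, and 8 higher and 2 lower against parabiotic CD11c cells. Leaving out parabiotic replicate 15 gave 4 higher and 11 lower for parabiotic CD11c cells against microglia, and 2 higher for transgenic against parabiotic CD11c cells.

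**Figure D2:**
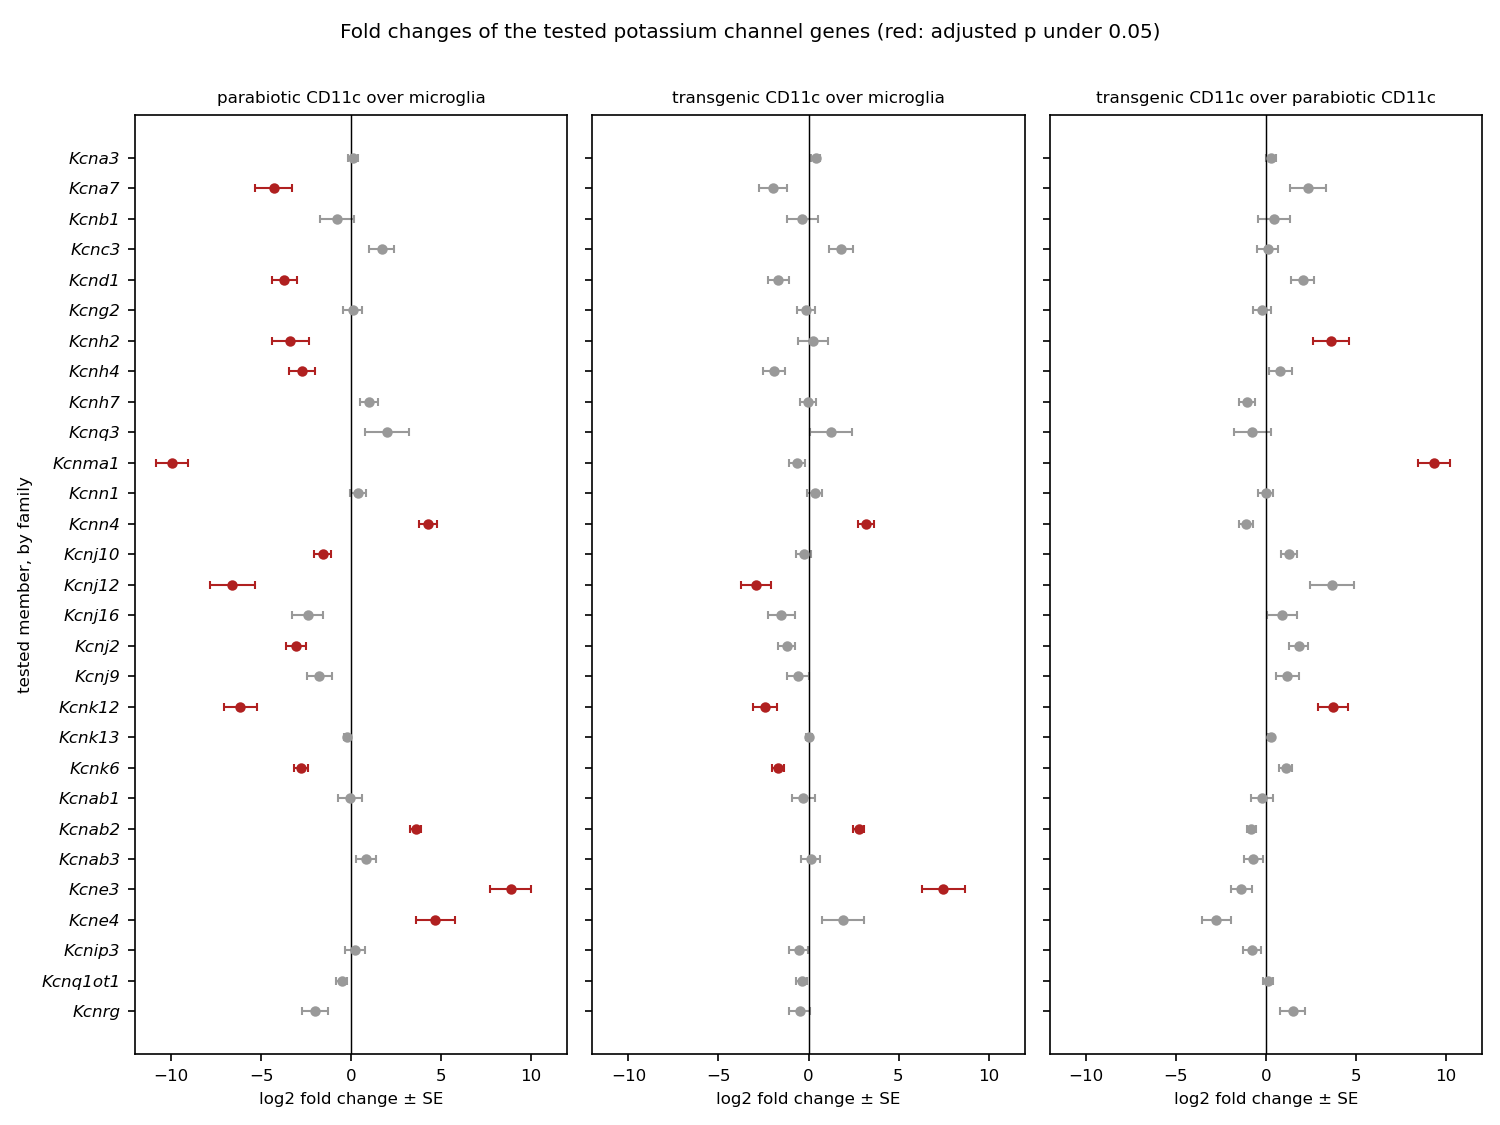
Log2 fold change with its standard error for the 29 tested members, by family, in parabiotic CD11c over microglia, transgenic CD11c over microglia and transgenic over parabiotic CD11c; red marks an adjusted p under 0.05. The 10 red points left of 0 in the first panel contrast with 3 in the second and none in the third; fitted values of Kcne3, Kcne4, Kcnma1 and Kcnj12 depend on the prior count because a group held 0 to 3 counts.

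Tandem pore domain channels carry the background potassium current. Of the 3 tested members, Kcnk6 and Kcnk12 were lower in both CD11c groups than in microglia, and the difference of Kcnk13 from microglia did not pass the test in either. Kcnk6 (chromosome 7, 29221926 to 29232515) encodes TWIK-2, described in mouse macrophages as an efflux channel upstream of NLRP3. Its level was 154, 159.7, 72.8 and 61.4 CPM in transgenic CD11c cells, 49.9, 49.7 and 58.6 CPM in parabiotic CD11c cells and 446, 371 and 264 CPM in microglia. No library of a group overlapped another group, and the parabiotic libraries lay close together. The log2 fold change was -2.77 ± 0.37 (SE) in parabiotic CD11c cells against microglia (adjusted p = 0.000221) and -1.69 ± 0.33 in transgenic CD11c cells against microglia (adjusted p = 0.00772). Between transgenic and parabiotic CD11c cells it was 1.09 ± 0.34 (adjusted p = 0.0686), and with transgenic replicates 26 and 27 left out it was 1.56 (adjusted p = 0.000298).

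Kcnk12 and Kcnk13 are close relatives that encode THIK-2 and THIK-1, of which THIK-1 is the main tonic potassium channel of microglia and THIK-2 gives little current on its own. Kcnk12 (chromosome 17, 87745801 to 87797994) stood at 3.82, 4.85, 1.77 and 0.853 CPM in transgenic CD11c cells, 0.144, 0 and 0.486 CPM in parabiotic CD11c cells and 13.0, 17.8 and 14.5 CPM in microglia. The groups did not overlap, with transgenic libraries between the others. Parabiotic CD11c cells were lower than microglia by a log2 fold change of -6.15 ± 0.90 (adjusted p = 0.000365), transgenic CD11c cells were lower than microglia by -2.42 ± 0.64 (adjusted p = 0.0313) and higher than parabiotic CD11c cells by 3.73 ± 0.83 (adjusted p = 0.0154). The call between transgenic CD11c cells and microglia was lost without microglia replicate 39, 40 or 41 (adjusted p = 0.0924, 0.126 and 0.0731) and without transgenic replicate 26 (adjusted p = 0.0553), and the call against parabiotic CD11c cells was lost without parabiotic replicate 3 (adjusted p = 0.0793). Without a low-count filter and with a term for transgenic replicates 26 and 27, the call against microglia was lost too, with adjusted p up to 0.12. In a fit of the 2 compared groups alone, the call against parabiotic CD11c cells was lost (adjusted p = 0.0672).

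Kcnk13 (chromosome 12, 99964499 to 100062682) had 86.8, 98.6, 114 and 122 CPM in transgenic CD11c cells, 83.1, 91.6 and 87.1 CPM in parabiotic CD11c cells and 106, 107 and 97.7 CPM in microglia. Transgenic libraries overlapped both other groups, and the 3 parabiotic libraries lay just below the 3 microglia libraries. The log2 fold change was -0.25 ± 0.16 for parabiotic CD11c cells against microglia (adjusted p = 0.248), 0.02 ± 0.15 for transgenic CD11c cells against microglia (adjusted p = 0.925) and 0.27 ± 0.15 for transgenic against parabiotic CD11c cells (adjusted p = 0.301). Among the named members it was the gene with the smallest standard error in each comparison.

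Start-site windows from RefSeq (GRCm38.p6; 300 bases each, mostly before the start) were present for 62 of the 86 members. They are shown for the 4 members with a call and a single window that reached the highest group means, to set their base composition beside the levels. Each is given on its own strand, from 5′ to 3′, with the letters GAGGAA and its reverse complement TTCCTC in capitals, the core of the sites bound by the myeloid factor PU.1. The windows are chr7:24370013-24370312 on the plus strand for Kcnn4, chr11:111065914-111066213 on the plus strand for Kcnj2, chr14:24004156-24004455 on the minus strand for Kcnma1, and chr17:87797945-87798244 on the minus strand for Kcnk12.
Kcnn4: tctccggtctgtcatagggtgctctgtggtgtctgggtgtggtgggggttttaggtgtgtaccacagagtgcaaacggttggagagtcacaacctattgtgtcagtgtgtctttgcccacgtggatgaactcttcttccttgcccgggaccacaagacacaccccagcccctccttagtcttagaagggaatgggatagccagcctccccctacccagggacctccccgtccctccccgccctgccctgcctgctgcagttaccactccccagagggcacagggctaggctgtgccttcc
Kcnj2: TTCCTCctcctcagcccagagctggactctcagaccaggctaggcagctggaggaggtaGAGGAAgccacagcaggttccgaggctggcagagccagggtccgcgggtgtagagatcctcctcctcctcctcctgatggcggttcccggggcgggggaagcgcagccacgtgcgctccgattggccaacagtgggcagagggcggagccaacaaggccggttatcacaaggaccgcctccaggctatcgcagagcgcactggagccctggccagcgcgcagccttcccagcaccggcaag
Kcnma1: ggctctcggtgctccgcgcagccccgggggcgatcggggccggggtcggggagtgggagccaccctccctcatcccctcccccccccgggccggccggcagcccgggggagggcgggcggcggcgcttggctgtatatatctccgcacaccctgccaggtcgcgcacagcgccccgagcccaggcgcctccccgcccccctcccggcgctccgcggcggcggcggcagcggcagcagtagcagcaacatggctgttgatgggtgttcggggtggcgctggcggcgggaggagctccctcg
Kcnk12: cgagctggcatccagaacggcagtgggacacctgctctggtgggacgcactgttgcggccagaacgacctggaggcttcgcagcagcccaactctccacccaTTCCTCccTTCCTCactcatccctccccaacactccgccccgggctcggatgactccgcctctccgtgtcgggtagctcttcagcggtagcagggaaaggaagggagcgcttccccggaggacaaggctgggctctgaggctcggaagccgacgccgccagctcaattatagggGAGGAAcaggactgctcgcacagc
The letters GAGGAA occurred on either strand 0 times for Kcnn4, 2 times for Kcnj2, 0 times for Kcnma1 and 3 times for Kcnk12, and 28.3% of all 32851 windows of this length held at least 1 match. The RUNX letters TGTGGT occurred 4 times for Kcnn4 and in none of the other 3 windows, against 16.8% of all windows with a match. The AP-1 letters TGANTCA (7.81% of all windows), the TATA box TATAAA (13.6%) and a composite site of ETS and IRF factors (2.72%), which can overlap GAGGAA, were searched on both strands too and occurred in none of the 4. GC content was 59.7% for Kcnn4, 66.7% for Kcnj2, 78.0% for Kcnma1 and 64.3% for Kcnk12, against a median of 52.7% over all windows, with 6, 18, 36 and 20 CpG dinucleotides in the same order, against a median of 7. The Kcnma1 window lies within the gene as GENCODE annotates it. A match describes these letters in this window and nothing else.

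Calcium-activated channels open when cytosolic calcium rises, and the main pair moved in opposite directions in parabiotic CD11c cells against microglia. Kcnn4 was higher and Kcnma1 was lower in that comparison. Kcnn4 (chromosome 7, 24370263 to 24386690) encodes the intermediate conductance channel KCa3.1, which senses calcium through bound calmodulin. Its level was 64.3, 76.2, 39.8 and 29.2 CPM in transgenic CD11c cells, 112, 94.99 and 126 CPM in parabiotic CD11c cells and 2.51, 5.77 and 9.12 CPM in microglia. The groups did not overlap, and every CD11c library lay well above every microglia library. The log2 fold change was 4.26 ± 0.48 in parabiotic CD11c cells against microglia (adjusted p = 7.15e-05), 3.18 ± 0.45 in transgenic CD11c cells against microglia (adjusted p = 0.00131) and -1.09 ± 0.39 in transgenic against parabiotic CD11c cells (adjusted p = 0.112).

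Kcnma1 (chromosome 14, 23289431 to 24014491) encodes the pore of the large conductance BK channel, which needs voltage and calcium. It stood at 15.5, 18.3, 21.6 and 4.63 CPM in transgenic CD11c cells, 0, 0.0608 and 0 CPM in parabiotic CD11c cells and 14.2, 28.3 and 27.6 CPM in microglia. Parabiotic libraries were nearly empty of it, with 2 counts in all, while transgenic and microglia libraries overlapped. The level in parabiotic CD11c cells was lower than in microglia, with 2 counts in the parabiotic group and 2300 in the microglia group (adjusted p = 1.68e-05), a ratio of microglia over parabiotic CD11c cells of 1162 with a 95% counting interval of 321 to 9604. Transgenic CD11c cells, with 2274 counts, exceeded parabiotic CD11c cells by a ratio of 745 (95% counting interval 206 to 6159; adjusted p = 0.000112). Both calls held with every single library left out and under every other setting run. Transgenic CD11c cells against microglia gave a log2 fold change of -0.64 ± 0.46 (adjusted p = 0.356). Exons of Kcnma1 share 6.0% of their length with 4930519K11Rik on the opposite strand, and these libraries do not mark strand. Oligodendrocyte precursor markers (2 of 2, Pdgfra and Cspg4) were likewise lowest in parabiotic CD11c cells, at 2.59 to 3.55 CPM. They summed to 55.4 to 115 CPM in transgenic CD11c cells and 48.2 to 201 CPM in microglia. Other lists were lowest in parabiotic CD11c cells too. Microglial markers summed to 1907 to 3338 CPM there, against 5839 to 16706 CPM in transgenic CD11c cells and 18683 to 20772 CPM in microglia. Astrocyte markers summed to 6.23 to 9.55 CPM, against 24.1 to 57.4 and 106 to 179 CPM. The part of any of these cell types in the Kcnma1 differences was not tested. The small conductance channel Kcnn1 lay between 0.339 and 0.607 CPM in all libraries and was not called.

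Voltage-gated channels open on depolarisation. Of the 10 tested alpha subunits, Kcnd1, Kcnh2, Kcnh4 and Kcna7 were lower in parabiotic CD11c cells than in microglia. In transgenic CD11c cells against microglia the lowest adjusted p of the family was 0.0597, that of Kcnh4. Kcna3, the most abundant alpha subunit per kb, was not called in any of the 3 comparisons. Kcna3 (chromosome 3, 107036169 to 107038070) encodes Kv1.3, the delayed rectifier of T cells and of activated microglia. Library values were 88.2, 87.1, 61.8 and 41.6 CPM in transgenic CD11c cells, 53.3, 60.0 and 57.0 CPM in parabiotic CD11c cells and 36.6, 59.9 and 62.6 CPM in microglia. All groups overlapped. The log2 fold changes were 0.10 ± 0.28 for parabiotic CD11c cells against microglia (adjusted p = 0.818), 0.39 ± 0.27 for transgenic CD11c cells against microglia (adjusted p = 0.332) and 0.29 ± 0.27 for transgenic against parabiotic CD11c cells (adjusted p = 0.570). With transgenic replicates 26 and 27 left out, the transgenic libraries were higher than microglia by 0.72 (adjusted p = 0.0328) and higher than parabiotic CD11c cells by 0.61 (adjusted p = 0.0488).

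Kcnd1 (chromosome X, 7822289 to 7838280) encodes Kv4.1, a channel of fast inactivating A-type currents. It had 24.7, 29.0, 9.79 and 2.90 CPM in transgenic CD11c cells, 4.34, 2.71 and 5.10 CPM in parabiotic CD11c cells and 54.3, 62.8 and 41.7 CPM in microglia. Every microglia library exceeded every CD11c library, and only transgenic replicate 27 reached down into the parabiotic range. The log2 fold change was -3.71 ± 0.69 in parabiotic CD11c cells against microglia (adjusted p = 0.00169), -1.67 ± 0.57 in transgenic CD11c cells against microglia (adjusted p = 0.0716) and 2.03 ± 0.62 in transgenic against parabiotic CD11c cells (adjusted p = 0.0642). Without transgenic replicates 26 and 27 the second became -0.98 (adjusted p = 0.0197) and the third 2.71 (adjusted p = 6.14e-05).

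The ether-a-go-go relatives and Kcna7 were expressed at lower levels. Kcnh2 (chromosome 5, 24319589 to 24351604), the hERG channel of cardiac repolarisation, had 3.85, 4.50, 12.6 and 2.05 CPM in transgenic CD11c cells, 0.115, 0.335 and 0.941 CPM in parabiotic CD11c cells and 0.650, 3.71 and 10.0 CPM in microglia. Microglia libraries were widely spread and overlapped both other groups, while transgenic and parabiotic libraries did not overlap. Its log2 fold change was -3.37 ± 1.03 in parabiotic CD11c cells against microglia (adjusted p = 0.0252), 0.26 ± 0.84 in transgenic CD11c cells against microglia (adjusted p = 0.856) and 3.63 ± 1.01 in transgenic against parabiotic CD11c cells (adjusted p = 0.0433). The first call was lost without microglia replicate 41, parabiotic replicate 11 or parabiotic replicate 3 (adjusted p = 0.117, 0.0856 and 0.0874). The last was lost when any of parabiotic replicates 3, 11 and 15, microglia replicate 40 or transgenic replicates 23, 24 and 26 was left out, with adjusted p up to 0.159. It was also lost with transgenic replicates 26 and 27 both left out (3.16, adjusted p = 0.0505), with a term for them (adjusted p = 0.0977), with limma-voom (adjusted p = 0.113) and without a low-count filter (adjusted p = 0.14). The first was lost with limma-voom (adjusted p = 0.125) and without the filter (adjusted p = 0.0841) too. Oligodendrocyte precursor markers (2 of 2, Pdgfra and Cspg4) summed to 115, 87.1, 94.2 and 55.4 CPM in transgenic CD11c cells, 2.79, 2.59 and 3.55 CPM in parabiotic CD11c cells and 48.2, 119 and 201 CPM in microglia. Like mean Kcnh2, they were lowest in the parabiotic group, and they ran in its order among the microglia libraries. Among the transgenic libraries the order differed, though both were lowest in replicate 27. Microglia replicate 39 had less Kcnh2 than parabiotic replicate 15, at 48.2 against 3.55 CPM of these markers. Microglial and astrocyte marker sums were lowest in the parabiotic group too. The part of any of these cell types in the Kcnh2 differences was not tested.

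Kcnh4 (chromosome 11, 100740376 to 100759942), a relative found mainly in brain, had 2.23, 1.27, 0.430 and 0.560 CPM in transgenic CD11c cells, 1.18, 0.182 and 0.546 CPM in parabiotic CD11c cells and 3.76, 5.00 and 4.05 CPM in microglia. Its log2 fold change was -2.74 ± 0.71 in parabiotic CD11c cells against microglia (adjusted p = 0.0115) and -1.93 ± 0.62 in transgenic CD11c cells against microglia (adjusted p = 0.0597). Kcna7 (chromosome 7, 45405653 to 45409763), the Kv1.7 channel of heart and skeletal muscle, had 0.530, 0.404, 0.101 and 0.0487 CPM in transgenic CD11c cells, 0, 0.0608 and 0.0911 CPM in parabiotic CD11c cells and 0.876, 1.47 and 0.823 CPM in microglia, with a log2 fold change of -4.31 ± 1.01 in parabiotic CD11c cells against microglia (adjusted p = 0.00671). In both genes the microglia libraries stood above all CD11c libraries, and the CD11c groups overlapped each other. Neuronal markers summed over 6 of 6 genes to 1.00 to 3.64 CPM in transgenic CD11c cells, 0.0607 to 1.09 CPM in parabiotic CD11c cells, with Slc17a7 at 0, and 4.40 to 5.86 CPM in microglia, so they lay in the same order as Kcnh4 and Kcna7; their part in these differences was not tested.

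**Figure D3:**
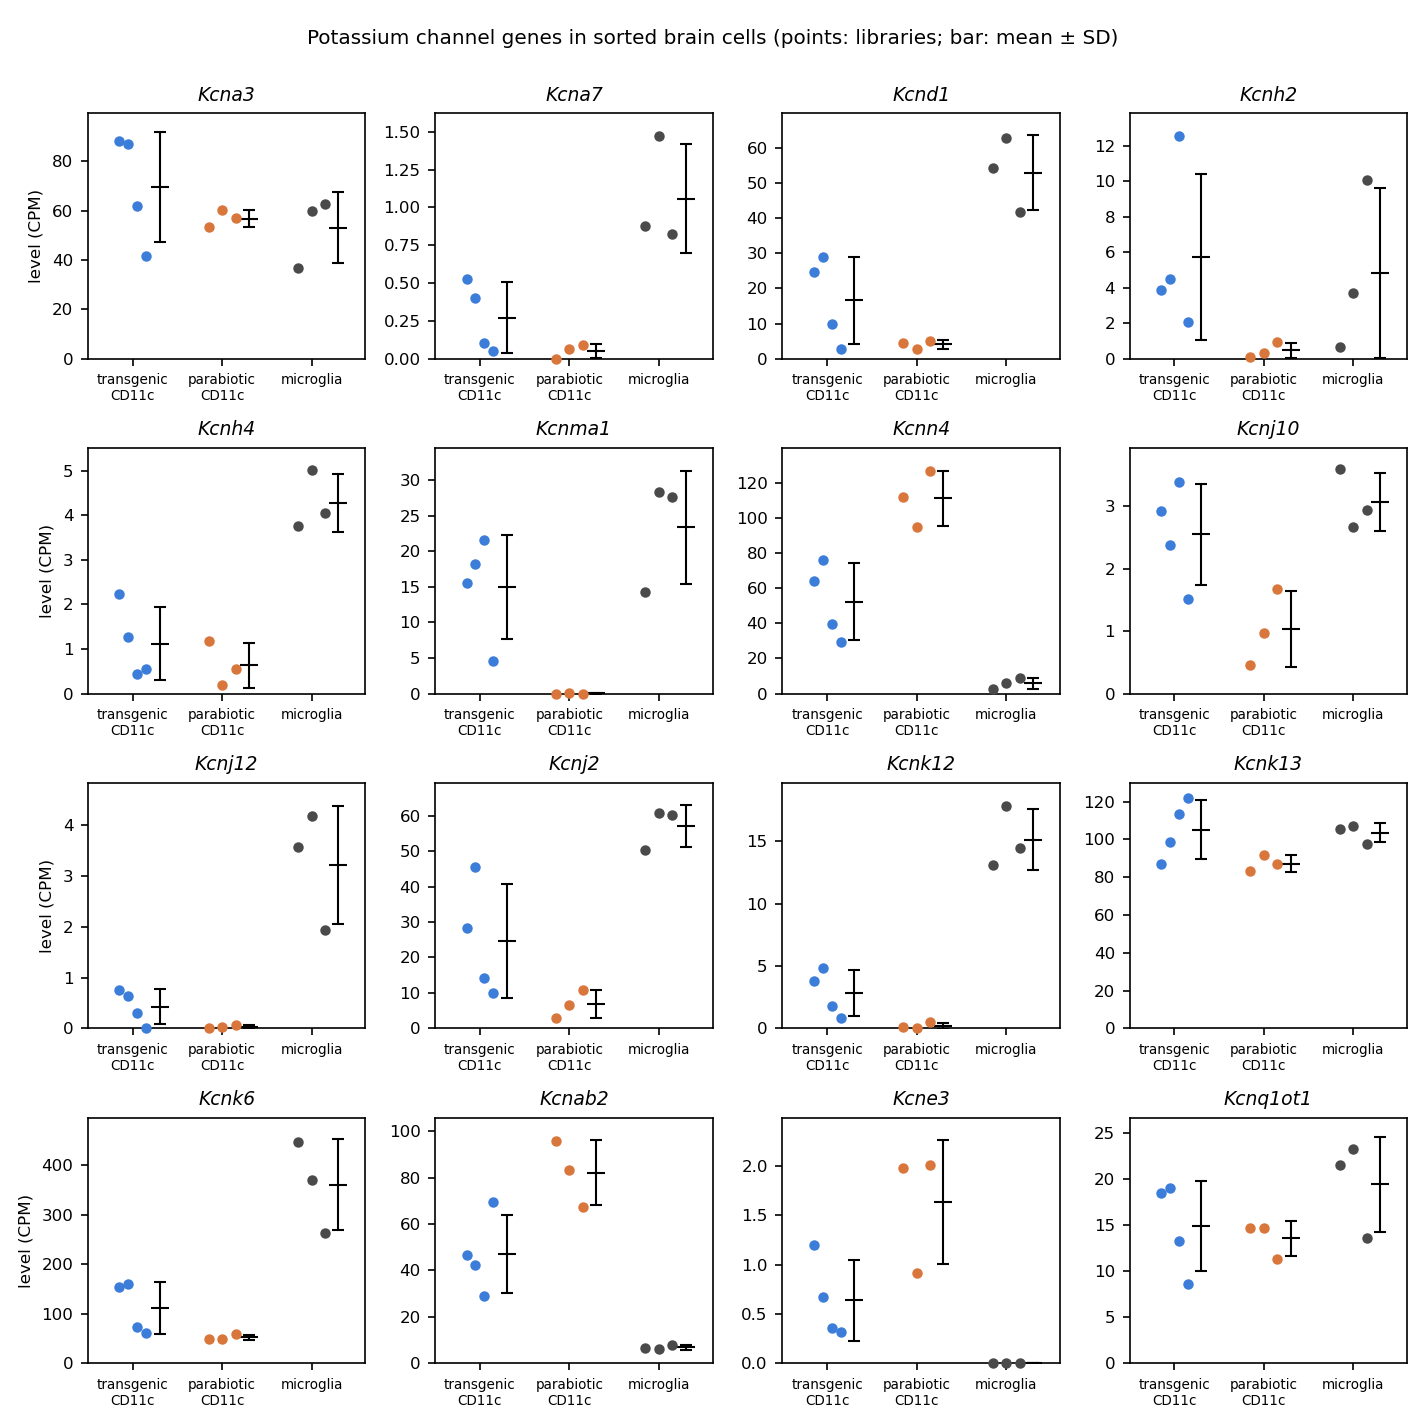
Level in CPM of the 16 named potassium channel genes in each library, with mean ± SD beside the points; groups run from transgenic CD11c (n = 4) through parabiotic CD11c (n = 3) to microglia (n = 3), and each panel has its own axis from 0. Kcnn4 and Kcnab2 are low in microglia, Kcnk6, Kcnd1 and Kcnj2 are high there, Kcnma1 is near 0 in parabiotic CD11c cells, and Kcnk13 and Kcna3 overlap between transgenic CD11c cells and microglia.

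Inward rectifiers pass potassium most easily near the resting potential and hold it there. Of the 5 tested members, Kcnj2, Kcnj12 and Kcnj10 were lower in parabiotic CD11c cells than in microglia, and Kcnj12 alone was called in transgenic CD11c cells against microglia. Kcnj2 (chromosome 11, 111066164 to 111076821) encodes Kir2.1, the inward rectifier of resting microglia in culture. Its values were 28.3, 45.6, 14.3 and 9.94 CPM in transgenic CD11c cells, 3.04, 6.69 and 10.9 CPM in parabiotic CD11c cells and 50.3, 60.8 and 60.1 CPM in microglia. Microglia libraries stood above all others, and transgenic replicate 27 lay within the parabiotic range. The log2 fold change was -3.06 ± 0.57 in parabiotic CD11c cells against microglia (adjusted p = 0.00184), -1.22 ± 0.49 in transgenic CD11c cells against microglia (adjusted p = 0.113) and 1.84 ± 0.53 in transgenic against parabiotic CD11c cells (adjusted p = 0.0502). The last became 2.41 without transgenic replicates 26 and 27 (adjusted p = 0.00336).

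Kcnj12 (chromosome 11, 61022564 to 61071131), which encodes the relative Kir2.2, had 0.754, 0.647, 0.304 and 0 CPM in transgenic CD11c cells, 0, 0.0304 and 0.0607 CPM in parabiotic CD11c cells and 3.56, 4.18 and 1.93 CPM in microglia. Microglia libraries did not overlap the others. Parabiotic CD11c cells held 3 counts and microglia 323, a ratio of microglia over parabiotic CD11c cells of 109 with a 95% counting interval of 36.9 to 530.5 (adjusted p = 0.0018). Transgenic CD11c cells were lower than microglia by a log2 fold change of -2.92 ± 0.83 (adjusted p = 0.0405), a call that was lost when any of 7 of the 10 libraries was left out, with adjusted p up to 0.161 (without microglia replicate 40). A fit of the 2 compared groups alone and a term for transgenic replicates 26 and 27 lost this call too, with adjusted p up to 0.155. Kcnj10 (chromosome 1, 172341210 to 172374085), the Kir4.1 channel of astrocytes and oligodendrocytes, had 2.93, 2.37, 3.39 and 1.51 CPM in transgenic CD11c cells, 0.460, 0.973 and 1.67 CPM in parabiotic CD11c cells and 3.59, 2.67 and 2.94 CPM in microglia. Parabiotic libraries lay below all microglia libraries (log2 fold change -1.57 ± 0.47, adjusted p = 0.0227), and this call was lost without microglia replicate 39, parabiotic replicate 11 or parabiotic replicate 3 (adjusted p = 0.0723, 0.0705 and 0.0727). Kcnj9, which lies 11891 bases from Kcnj10, and Kcnj16, which lies 38195 bases from Kcnj2, were not called. Their log2 fold changes in parabiotic CD11c cells against microglia were -1.76 ± 0.68 (adjusted p = 0.0641) for Kcnj9 and -2.40 ± 0.86 (adjusted p = 0.0503) for Kcnj16. Astrocyte markers, 6 of 6 detected, summed to 24.1 to 57.4 CPM in transgenic CD11c cells, 6.23 to 9.55 CPM in parabiotic CD11c cells and 106 to 179 CPM in microglia. Their order of groups was that of the mean levels of Kcnj2, Kcnj12, Kcnj10 and Kcnj16. Oligodendrocyte markers (5 of 5) ran in another order, at 148 to 232 CPM in transgenic CD11c cells, 228 to 278 CPM in parabiotic CD11c cells and 207 to 229.6 CPM in microglia. They were not lowest in parabiotic CD11c cells, where these genes were lowest. The part of such cells in these differences was not tested.

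Auxiliary subunits had calls in the upward direction against microglia. Of 6 tested, Kcnab2, Kcne3 and Kcne4 were higher in parabiotic CD11c cells than in microglia, and Kcnab2 and Kcne3 were higher in transgenic CD11c cells than in microglia. Kcnab2 (chromosome 4, 152390742 to 152477871) encodes Kvbeta2, a cytoplasmic subunit of Kv1 channels with an aldo-keto reductase fold. Its level was 46.8, 42.3, 29.1 and 69.6 CPM in transgenic CD11c cells, 95.6, 83.4 and 67.5 CPM in parabiotic CD11c cells and 6.497, 6.17 and 7.88 CPM in microglia. All CD11c libraries lay above all microglia libraries, and the CD11c groups overlapped through transgenic replicate 27. The log2 fold change was 3.58 ± 0.30 in parabiotic CD11c cells against microglia (adjusted p = 1.24e-05), 2.78 ± 0.29 in transgenic CD11c cells against microglia (adjusted p = 0.000202) and -0.81 ± 0.25 in transgenic against parabiotic CD11c cells (adjusted p = 0.0707). The last became -0.90 without transgenic replicates 26 and 27 (adjusted p = 0.00403). Exons of Kcnab2 share 2.2% of their length with Gm16334 on the same strand.

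Kcne3 (chromosome 7, 100176502 to 100184869) encodes a single-pass subunit that keeps Kcnq1 channels of epithelia open. It had 1.20, 0.674, 0.354 and 0.317 CPM in transgenic CD11c cells, 1.98, 0.912 and 2.004 CPM in parabiotic CD11c cells and 0 in all 3 microglia libraries. With 3 counts in the whole microglia group, 0.0301 CPM, taken as the upper limit that a count of 0 allows, the level was at least 54.4-fold higher in parabiotic CD11c cells (165 counts, adjusted p = 0.000397) and at least 20.5-fold higher in transgenic CD11c cells (95 counts, adjusted p = 0.00436). Kcne4, a relative that lowers Kv1.3 currents in heterologous cells, was called but fell under the level set for naming and was picked out after its values were seen. It had 61 counts in parabiotic CD11c cells and 2 in microglia, a ratio of 30.2 with a 95% counting interval of 8.0 to 255 (adjusted p = 0.00657). Kcnip3, the calcium sensor known as calsenilin or DREAM, was the most abundant tested member with no call and no place among the named genes, at 3.26 to 14.5 CPM in transgenic CD11c cells, 10.2 to 19.7 CPM in parabiotic CD11c cells and 7.63 to 17.4 CPM in microglia. Monocyte markers (3 of 3) summed to 150.3 to 515 CPM in transgenic CD11c cells, 701 to 866 CPM in parabiotic CD11c cells and 9.72 to 11.7 CPM in microglia. Mast cell markers (3 of 4 in the table) summed to 7.44 to 89.6 CPM in transgenic CD11c cells, 97.2 to 131 CPM in parabiotic CD11c cells, with Mcpt4 at 0, and 0.253 to 1.19 CPM in microglia. Dendritic cell, monocyte, neutrophil and mast cell markers all ran in the same order of groups as Kcnn4, Kcnab2 and Kcne3, and microglial markers in the same order as Kcnk6, Kcnk12, Kcnd1 and Kcnj2, by the sums given above; the part of mixed cell types in these differences was not tested.

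Kcnq1ot1 (chromosome 7, 143203458 to 143296549) is a long non-coding RNA transcribed antisense within Kcnq1 that silences neighbouring imprinted genes in cis. Library values were 18.4, 19.0, 13.3 and 8.62 CPM in transgenic CD11c cells, 14.6, 14.6 and 11.4 CPM in parabiotic CD11c cells and 21.5, 23.2 and 13.5 CPM in microglia, with overlap between all groups. It was called in no comparison, with a log2 fold change of -0.52 ± 0.31 in parabiotic CD11c cells against microglia (adjusted p = 0.215), -0.39 ± 0.28 in transgenic CD11c cells against microglia (adjusted p = 0.369) and 0.13 ± 0.29 in transgenic against parabiotic CD11c cells (adjusted p = 0.844). Kcnq1 itself held 0 to 3 counts per library, and because the libraries do not mark strand, reads from the pair in shared bases cannot be told apart. Kcnrg, which encodes a regulator that binds Kv1 subunits, gave -1.99 ± 0.72 in parabiotic CD11c cells against microglia (adjusted p = 0.0518).

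Genes that work with potassium channels were counted by list in the same fit. Over all genes tested, 17.4% were called higher and 17.9% lower in parabiotic CD11c cells against microglia. The shares were 8.88% and 4.79% in transgenic CD11c cells against microglia, and 7.63% and 2.42% in transgenic against parabiotic CD11c cells. The counts of every list below stand beside these shares, and no list was tested as a set. The list of potassium pumps and cotransporters also holds Fxyd regulators of the pump and other members of the Slc12 family. Of its 17 tested genes, 4 were higher and 3 lower in parabiotic CD11c cells than in microglia. In transgenic CD11c cells, 2 were higher and 1 lower than in microglia, and 2 were higher and 1 lower than in parabiotic CD11c cells. With a library left out, the 2 higher in transgenic CD11c cells against microglia ranged from 1 to 3, and the 2 higher and 1 lower against parabiotic CD11c cells ranged from 1 to 2 and from 0 to 3. Fxyd5, a regulator of the sodium and potassium pump, averaged 423 ± 112 CPM in transgenic CD11c cells (SD, n = 4), 722 ± 33.0 CPM in parabiotic CD11c cells (n = 3) and 102 ± 39.1 CPM in microglia (n = 3), with log2 fold changes of 2.83 ± 0.29 for parabiotic CD11c cells against microglia (adjusted p = 4.15e-05) and 2.05 ± 0.27 for transgenic CD11c cells against microglia (adjusted p = 0.000954). Slc12a2, the cotransporter NKCC1 that takes up sodium, potassium and chloride, averaged 109.7 ± 64.9 CPM in transgenic CD11c cells, 5.00 ± 0.428 CPM in parabiotic CD11c cells and 240.7 ± 65.7 CPM in microglia. Its log2 fold change was -5.59 ± 0.62 for parabiotic CD11c cells against microglia (adjusted p = 5.86e-05) and 4.45 ± 0.57 for transgenic against parabiotic CD11c cells (adjusted p = 0.000711). Slc12a9, a relative of that transporter, was lower than in microglia by -2.07 ± 0.24 in parabiotic (adjusted p = 9.49e-05) and by -1.51 ± 0.22 in transgenic CD11c cells (adjusted p = 0.00149).

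Among the channel partners with other symbols, Calm3, which encodes the calcium sensor that Kcnn4 channels carry, was higher in both CD11c groups than in microglia. It averaged 124 ± 9.78 CPM in transgenic CD11c cells (SD, n = 4), 134 ± 18.1 CPM in parabiotic CD11c cells (n = 3) and 79.7 ± 16.0 CPM in microglia (n = 3), with log2 fold changes of 0.75 ± 0.18 for parabiotic CD11c cells against microglia (adjusted p = 0.0074) and 0.64 ± 0.17 for transgenic CD11c cells against microglia (adjusted p = 0.0311). Both calls were lost without microglia replicate 40 (adjusted p = 0.053 for parabiotic and 0.186 for transgenic CD11c cells), and the call in transgenic CD11c cells was also lost without microglia replicate 39, parabiotic replicate 3 or 11 or transgenic replicate 26, with adjusted p from 0.0514 to 0.114. Without a low-count filter (adjusted p = 0.0657), in a fit of the 2 compared groups alone (0.0645) and with a term for transgenic replicates 26 and 27 (0.0838), the transgenic call was lost too. The 17 tested genes of calcium entry and release had 2 higher and 7 lower in parabiotic CD11c cells than in microglia, and 6 lower and 11 not called in transgenic CD11c cells against microglia. With a library left out, the last count of lower genes ranged from 0 (without microglia replicate 39) to 6, with 2 without microglia replicate 40 and 3 without parabiotic replicate 3, 11 or 15, and the count of higher genes in parabiotic CD11c cells ranged from 1 (without any 1 of the 6 microglia and parabiotic libraries) to 4 (without transgenic replicate 26). P2rx7, the ATP-gated channel that lets potassium out, averaged 114 ± 23.5 CPM in transgenic CD11c cells, 78.4 ± 12.8 CPM in parabiotic CD11c cells and 220.3 ± 36.3 CPM in microglia (log2 fold change -1.49 ± 0.22 for parabiotic CD11c cells against microglia, adjusted p = 0.000366, and -0.95 ± 0.20 for transgenic CD11c cells against microglia, adjusted p = 0.0109). The P2rx7 call in transgenic CD11c cells was lost without microglia replicate 39 (adjusted p = 0.0624). The ATP-gated P2rx4 was higher in parabiotic CD11c cells than in microglia by 0.73 ± 0.15 (adjusted p = 0.00342).

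Of 22 tested proton, anion and lysosomal channels, 8 were higher and 3 lower in parabiotic CD11c cells than in microglia, 2 were higher and 2 lower in transgenic CD11c cells than in microglia, and 1 was higher and 1 lower in transgenic than in parabiotic CD11c cells. The 8 became 5 without microglia replicate 39 or parabiotic replicate 3 and 4 without microglia replicate 40. With a library left out, the 2 higher and 2 lower in transgenic CD11c cells against microglia ranged from 2 to 4 and from 0 to 2, and each count of 1 against parabiotic CD11c cells ranged from 0 to 2. Lrrc8c and Lrrc8a, subunits of the volume-regulated anion channel, went opposite ways in parabiotic CD11c cells against microglia, with log2 fold changes of 3.12 ± 0.36 (adjusted p = 8.27e-05) and -1.48 ± 0.25 (adjusted p = 0.000854). Of the 7 genes of the NLRP3 inflammasome, 1 was higher and 4 lower in parabiotic CD11c cells than in microglia, and Nlrp3 alone was called in transgenic against parabiotic CD11c cells, a count of 1 that became 2 without transgenic replicate 24 and 4 without transgenic replicate 27. Nlrp3, the sensor of potassium efflux, averaged 284 ± 69.7 CPM in transgenic CD11c cells, 107.7 ± 10.8 CPM in parabiotic CD11c cells and 393 ± 87.5 CPM in microglia, and was lower in parabiotic CD11c cells than in microglia by -1.87 ± 0.25 (adjusted p = 0.000205) and higher in transgenic than in parabiotic CD11c cells by 1.40 ± 0.24 (adjusted p = 0.00338). Il1b, which encodes a cytokine that the inflammasome matures, was higher in parabiotic CD11c cells than in microglia by 1.20 ± 0.23 (adjusted p = 0.00213). Median log2 fold changes over the tested genes of the other lists, in parabiotic CD11c cells against microglia, were -0.13 for pumps and cotransporters, -0.52 for calcium entry and release, 0.20 for proton, anion and lysosomal channels and -0.50 for the inflammasome, beside -0.02 over all genes.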

How the data were processed

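RNA of sorted cells was amplified with a SMART-Seq kit for low input and made into libraries with a kit that does not mark strand, per the labels' protocols. GRCm38, STAR 2.5.3a, FastQC 0.11.5 and DESeq2 are named in the submitters' processing notes. The sources used here do not name the counting program, its annotation or how strand was treated. The authors deposited raw counts per Ensembl gene, whole numbers that are not normalized, for 28585 genes in 10 libraries of 31534625 to 41730688 counts. Symbols and coordinates came from GENCODE M21 (GRCm38), which held 28492 of the identifiers and 95 Kcn genes, of which 9 were not analysed here.

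All libraries entered one fit with a mean per group: filterByExpr by group (15151 genes kept, 13434 removed), TMM scaling and edgeR 4.0.16 (glmQLFit with robust = TRUE, glmQLFTest) in R 4.3.3, adjusted by the Benjamini-Hochberg method over all genes at 0.05. Common dispersion (0.1002) corresponds to a coefficient of variation of 0.317 between libraries, so the spread between replicates, not counting error, set the precision for most genes. CPM are counts scaled by the TMM-adjusted library size (cpm in edgeR). Counting intervals and floors (95% level, 3 counts over a group) cover counting error only. The members and gene lists were chosen with earlier results of these data known. Named members were 8 genes listed by name plus each tested member with a call and a mean of at least 1 CPM in a group; other lists gave up to 3 genes in their main direction and 2 in the other, of which some are printed. A gene of the list of channel partners is not reported here. Alternatives were RLE and upper quartile scaling, DESeq2 1.42.0, limma-voom (limma 3.58.1), no filter, a stricter filter (5 CPM in 3 libraries), a fit of the compared pair of groups alone, a term for transgenic replicates 26 and 27, and each library left out. The fit was tested on simulated counts.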

Additional observations from a re-analysis of the deposited data

How the results depend on the processing

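No paired analysis was possible because the groups share no replicate numbers. Over the named potassium channel genes, 363 of the values under other settings and 436 of those with a library left out kept direction and side of the threshold; 11 and 25 lost the call, 30 and 12 gained one, and 9 and 7 changed sign. Leaving out transgenic replicates 26 and 27 together was chosen after seeing the data. In parabiotic CD11c cells against microglia, the 4 higher and 10 lower members became 2 and 5 with at least 5 CPM in 3 libraries; with a library left out they ranged from 4 to 5 and from 8 to 13. In transgenic CD11c cells against microglia, the 3 lower members became 6 with DESeq2, 7 with limma-voom and 1 with a term for transgenic replicates 26 and 27, and ranged from 1 (without microglia replicate 39, 40 or 41 or transgenic replicate 26) to 5 (without transgenic replicate 24). In transgenic against parabiotic CD11c cells, the 3 higher members became 8 with DESeq2, 7 with the term and 8 with both replicates left out, and ranged from 1 (without parabiotic replicate 3) to 8 (without transgenic replicate 27); the 0 lower became 3 with DESeq2, 2 with limma-voom and 2 with both replicates left out, and ranged from 0 to 2. Without transgenic replicate 27 alone, Kcnk6 (1.29), Kcnd1 (2.39), Kcnj2 (2.10), Kcnj10 (1.49) and Kcnj12 (4.09) were called higher and Kcnab2 (-1.06) lower there. The term called Kcnk6 (1.57), Kcnd1 (2.73), Kcnj2 (2.43), Kcna7 (3.14) and Kcnj12 (4.40) higher there, beside Kcnk12 and Kcnma1.

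Signs changed for values that were not called. Kcna3 in parabiotic CD11c cells against microglia ranged from -0.12 to 0.22 with a library left out. Kcnh2 in transgenic CD11c cells against microglia was -0.20 with the term, -0.21 with both replicates left out, and -0.51 to 1.39 with a library left out. Kcnk13 in the same comparison was -0.013 with DESeq2, RLE scaling or the stricter filter, -0.012 without a filter, -0.020 with upper quartile scaling, -0.16 with the term and with both replicates left out, and -0.038 to 0.11 with a library left out. Kcnq1ot1 in transgenic against parabiotic CD11c cells ranged from -0.011 to 0.32. The causes were not tested. Against microglia, transgenic CD11c cells were called lower for Kcnd1 (-2.09) and Kcnj2 (-1.71) without transgenic replicate 24, and for Kcnh4 (-2.50) without replicate 23. Members at 0 to 3 counts in a group are limited by counting depth, the rest by the number of libraries.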

Other observations

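Among the 57 members that were too low to test, the highest level in a single library belonged to Kcnj5, which encodes a G protein-gated inward rectifier. It had 19 counts in parabiotic replicate 11, 0.578 CPM, and 0 counts in each of the other 9 libraries. Kcna2, a neuronal relative of Kcna3 that lies 63075 bases from it, had 19 counts in parabiotic replicate 15 and at most 2 in the other parabiotic libraries, 0 to 3 in transgenic CD11c cells and 4 to 6 in microglia. Kcng1, a modifier subunit without current of its own, had 0 to 3 counts in transgenic libraries, 2, 18 and 19 counts in parabiotic replicates 3, 11 and 15, and 0 to 1 in microglia. Kcnc2, a channel of fast spiking neurons, had 0 to 4 counts in transgenic libraries, 5, 0 and 0 in parabiotic replicates 3, 11 and 15, and 20, 13 and 9 in microglia replicates 39, 40 and 41. These genes were picked after their values were seen and were not tested in the main fit. Other settings kept some of them, in parabiotic CD11c cells against microglia. Kcng1 was called higher without a low-count filter, without parabiotic replicate 3, and with transgenic replicates 26 and 27 left out. Kcnc2 was called lower without parabiotic replicate 3 and with transgenic replicates 26 and 27 left out. Kcnj5 and Kcna2 were called under no setting run.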
